A study of Mus musculus with 12 samples.

Results

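The GADD45 genes and a set of genes known for their response to p53 were followed in mouse macrophages given the peptide hepcidin. The set was given as a list of 10 genes: Gadd45a, Gadd45b, Gadd45g, Trp53, Mdm2, Cdkn1a, Ccng1, Trp53inp1, Phlda3 and Zmat3. The probe set annotation used here pairs 9 of them with 1 probe set each, and Trp53 was not analysed here. The 9 measured genes stand among 24675 genes with a named probe set. Values are the authors' deposited expression values, used as log2 values, so a difference of 1 is a 2-fold difference.

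The cells were bone marrow-derived macrophages, primary cells grown for 7 days from the marrow of wild-type mice aged 8 to 10 weeks in medium with L cell-conditioned medium as the source of M-CSF. Before treatment they stood for 1 h in plain DMEM, without serum or the M-CSF source, and this holds for all 4 groups. The groups were hepcidin for 1 h, PBS for 1 h, hepcidin for 3 h and PBS for 3 h, with 3 arrays in each. The sample titles number the arrays 1 to 3 in every group. No label says whether a number stands for the same culture across groups. The labels give the hepcidin dose as 1 µg/ml in one protocol and 10 µg/ml in another, so the dose is not settled. Whether the 3 samples in each group stem from different mice or wells is not stated, so p-values reflect just how far these samples differ, and that spread may be technical.

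GADD45 proteins are small acidic proteins without enzyme activity that bind other proteins, among them the MAP kinase kinase kinase MTK1, the CDK1 and cyclin B1 complex, PCNA and p21. They are induced by DNA damage, growth arrest and inflammatory signals. Gadd45a is a classic target of p53, while Gadd45b is known as a target of NF-kB and of TGF-beta that limits or prolongs MAP kinase signalling according to the cell. The transcription factor p53 is held low by the ubiquitin ligase Mdm2, which is itself a p53 target. When p53 is active, Cdkn1a (p21), Ccng1, Trp53inp1, Phlda3, Zmat3 and Mdm2 are among the genes that rise most regularly.

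Array medians lay between 4.84 and 4.94, and within a group the arrays had pairwise correlations over all probe sets between 0.994 and 0.997. Tests were made with limma across all 24675 genes, and a gene passed at a Benjamini-Hochberg adjusted p under 0.05. All 9 measured macrophage markers, among them Adgre1, Csf1r and Cd68, lay above the array median on all 12 arrays. With hepcidin at 3 h the macrophage marker Cd14, a co-receptor for lipopolysaccharide, rose by 0.80 (adjusted p = 3.52e-05 in limma) and Mertk, a receptor for the uptake of dead cells, fell by 1.08 (adjusted p = 0.00375). Their part in the results was not tested. All 5 measured lymphocyte markers lay below it on all 12, as did 5 of 8 neutrophil, 4 of 6 dendritic cell and 3 of 6 fibroblast markers. Col1a1, a collagen gene, lay between 5.79 and 6.56. In the comparisons of hepcidin with PBS at the same time, 0 markers of these other cell types passed in limma, with 2 at an unadjusted p under 0.05 at 1 h and 4 at 3 h. The mean level of the fibroblast list lay between 4.43 and 4.81 with hepcidin and between 4.49 and 4.75 with PBS at 1 h, and between 4.46 and 4.73 with hepcidin and 4.37 and 4.54 with PBS at 3 h. The mean level of the dendritic cell list at 1 h lay between 4.20 and 4.26 with hepcidin and between 4.33 and 4.45 with PBS. These ranges did not overlap, and all 6 dendritic cell markers had changes below 0 there. At 3 h the ranges overlapped, at 4.25 to 4.47 with hepcidin and 4.25 to 4.31 with PBS, and 5 of the 6 changes lay above 0. The part of these differences in the results was not tested. Fewer cells of a type and less RNA per cell cannot be told apart in such samples.

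The sequences around the annotated starts of the 3 GADD45 genes are shown because Gadd45a and Gadd45b passed the test and Gadd45g did not, and that of Cdkn1a because it carries matches to the p53 half-site and its gene did not pass. They are RefSeq promoters of GRCm38.p6, 250 bases before to 50 bases after the start, 5′ to 3′ on the gene's strand. Capitals mark matches to the p53 half-site or to the E-box CACGTG.
Gadd45a chr6:67037358-67037657 (minus strand): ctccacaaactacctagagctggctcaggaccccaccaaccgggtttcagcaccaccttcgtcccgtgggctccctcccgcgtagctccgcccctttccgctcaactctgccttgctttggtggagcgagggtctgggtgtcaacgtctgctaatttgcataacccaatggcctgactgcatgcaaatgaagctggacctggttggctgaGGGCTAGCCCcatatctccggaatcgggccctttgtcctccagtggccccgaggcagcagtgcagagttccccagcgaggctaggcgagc
Gadd45b chr10:80929841-80930140 (plus strand): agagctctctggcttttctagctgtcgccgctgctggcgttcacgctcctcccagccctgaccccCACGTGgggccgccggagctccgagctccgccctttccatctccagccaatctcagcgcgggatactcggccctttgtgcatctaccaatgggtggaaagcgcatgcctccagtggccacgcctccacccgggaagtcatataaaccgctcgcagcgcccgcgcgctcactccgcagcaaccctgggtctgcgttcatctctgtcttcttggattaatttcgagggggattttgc
Gadd45g chr13:51846425-51846724 (plus strand): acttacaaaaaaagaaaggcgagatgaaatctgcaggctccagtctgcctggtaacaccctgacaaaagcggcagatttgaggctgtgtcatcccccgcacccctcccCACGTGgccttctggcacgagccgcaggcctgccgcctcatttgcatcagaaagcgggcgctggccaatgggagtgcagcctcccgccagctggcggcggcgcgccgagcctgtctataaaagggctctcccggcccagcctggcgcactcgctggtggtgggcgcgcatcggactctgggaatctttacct
Cdkn1a, first annotated start, chr17:29090729-29091028 (plus strand): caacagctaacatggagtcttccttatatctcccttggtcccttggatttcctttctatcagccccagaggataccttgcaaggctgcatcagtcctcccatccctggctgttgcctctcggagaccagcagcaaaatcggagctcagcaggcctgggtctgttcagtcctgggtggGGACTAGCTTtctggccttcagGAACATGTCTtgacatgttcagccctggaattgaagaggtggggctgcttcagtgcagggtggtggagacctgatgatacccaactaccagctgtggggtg

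Of the 9 measured genes, 7 had a promoter in the RefSeq table. Both strands were searched for the p53 half-site, the NF-kB motif, the AP-1 motif TGANTCA, the cyclic AMP response element TGACGTCA and the E-box CACGTG. Among 32851 promoters of the same length, 8.36% held a p53 half-site, 8.46% the NF-kB motif, 7.81% the AP-1 motif, 1.79% the cyclic AMP response element and 7.15% the E-box. The window of Gadd45a held 1 p53 half-site, GGGCTAGCCC, at -40 to -31 from the start. The first annotated start of Cdkn1a, the upstream one, held 2, GGACTAGCTT at -73 to -64 and GAACATGTCT at -51 to -42, counted from that start. The other annotated start of that gene lies downstream (window chr17:29093519-29093818) and held 0. Mdm2 held GAACTTGCCT at -186 to -177 and Ccng1 held GGGCAAGCCT at -185 to -176. Gadd45b and Gadd45g each held 1 E-box, at -185 to -180 and at -142 to -137, and 0 p53 half-sites. The NF-kB, AP-1 and cyclic AMP motifs were in 0 of the 7 genes' windows. Sequence outside the windows was not searched, so sites further from the start would be missed for any of these genes. The matches did not overlap each other, and they describe these letters only. The known p53 site of Gadd45a lies in an intron, outside this window.

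Gadd45a and Gadd45b rose with hepcidin within 1 h, and Gadd45g did not pass. Gadd45a, the p53-regulated member of the family, had 8.23, 8.28 and 8.41 with hepcidin at 1 h, against 7.46, 7.54 and 7.65 with PBS at 1 h. The lowest hepcidin array lay above the highest PBS array. The log2 change was 0.75 (SE 0.09, n = 3 arrays in each group), or 1.69-fold, with an adjusted p of 0.00125 in limma. Gadd45b, the member that NF-kB induces, had 9.56, 9.76 and 9.65 with hepcidin at 1 h, against 8.50, 8.70 and 8.77 with PBS at 1 h. These groups did not overlap either, and the change was 1.00 (SE 0.14), a rise of 2.00-fold (adjusted p = 0.00315 in limma, n = 3 each). The changes of Gadd45a and Gadd45b were exceeded in size by 0.405% and 0.215% of all genes.

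Gadd45g, the third family member, had 4.94, 5.23 and 5.15 with hepcidin at 1 h, against 5.32, 5.22 and 5.03 with PBS at 1 h. The groups overlapped, and all values lay just above the array medians. The log2 change was -0.08 with a 95% interval from -0.31 to 0.15. The intervals of Gadd45a, from 0.55 to 0.96, and Gadd45b, from 0.70 to 1.30, lay above it, and the difference between the genes was not tested.

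At 3 h the same family members were higher with hepcidin. Gadd45a had 7.98, 8.10 and 8.31 with hepcidin, against 7.21, 7.29 and 7.40 with PBS, again without overlap. The change was 0.83 (SE 0.09, 1.78-fold, adjusted p = 1.50e-04 in limma, n = 3 each). Gadd45b had 8.85, 9.43 and 9.16 with hepcidin, against 8.35, 8.67 and 8.35 with PBS, and the groups did not overlap. Its change was 0.69 (SE 0.14, 1.61-fold), with an adjusted p of 0.0108 in limma (n = 3 each). The hepcidin arrays of Gadd45b spread widely at 3 h (SD 0.29, n = 3), and its call was lost without PBS 3 h replicate 3 (change 0.64, adjusted p = 0.0551) and with only these 2 groups in the fit (adjusted p = 0.0622). Gadd45g had 5.00, 5.21 and 5.24 with hepcidin, against 5.15, 5.16 and 5.37 with PBS, and changed by -0.07 (95% interval -0.30 to 0.16).

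The hepcidin effect was not shown to differ between the times for any of the 9 genes: limma called 0, with 0 at an unadjusted p under 0.05, where 1.03% of all genes passed (0.523% with a larger and 0.507% with a smaller effect at 3 h). The effect of Gadd45b at 3 h minus that at 1 h was -0.31 (SE 0.20, adjusted p = 0.66 in limma) and that of Gadd45a 0.08 (SE 0.13, adjusted p = 0.903). With hepcidin, Gadd45b stood 0.51 lower at 3 h than at 1 h (log2 change -0.51, SE 0.14, adjusted p = 0.0584), and these groups did not overlap. Without hepcidin 3 h replicate 2 this change passed (-0.65, adjusted p = 0.0177 in limma). It also passed with a trended and robust prior (adjusted p = 0.0294) or among genes above the median mean (adjusted p = 0.0322). With the replicate number as a block its adjusted p was 0.00972, though no label says that the numbers pair the samples. The order of Gadd45b levels was hepcidin at 1 h (9.66 ± 0.10), hepcidin at 3 h (9.15 ± 0.29), PBS at 1 h (8.66 ± 0.14) and PBS at 3 h (8.46 ± 0.18, SD, n = 3 each), and the PBS groups overlapped. For Gadd45a the order was hepcidin at 1 h (8.30 ± 0.093), hepcidin at 3 h (8.13 ± 0.17), PBS at 1 h (7.55 ± 0.097) and PBS at 3 h (7.30 ± 0.092), and the hepcidin groups overlapped.

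**Figure D1:**
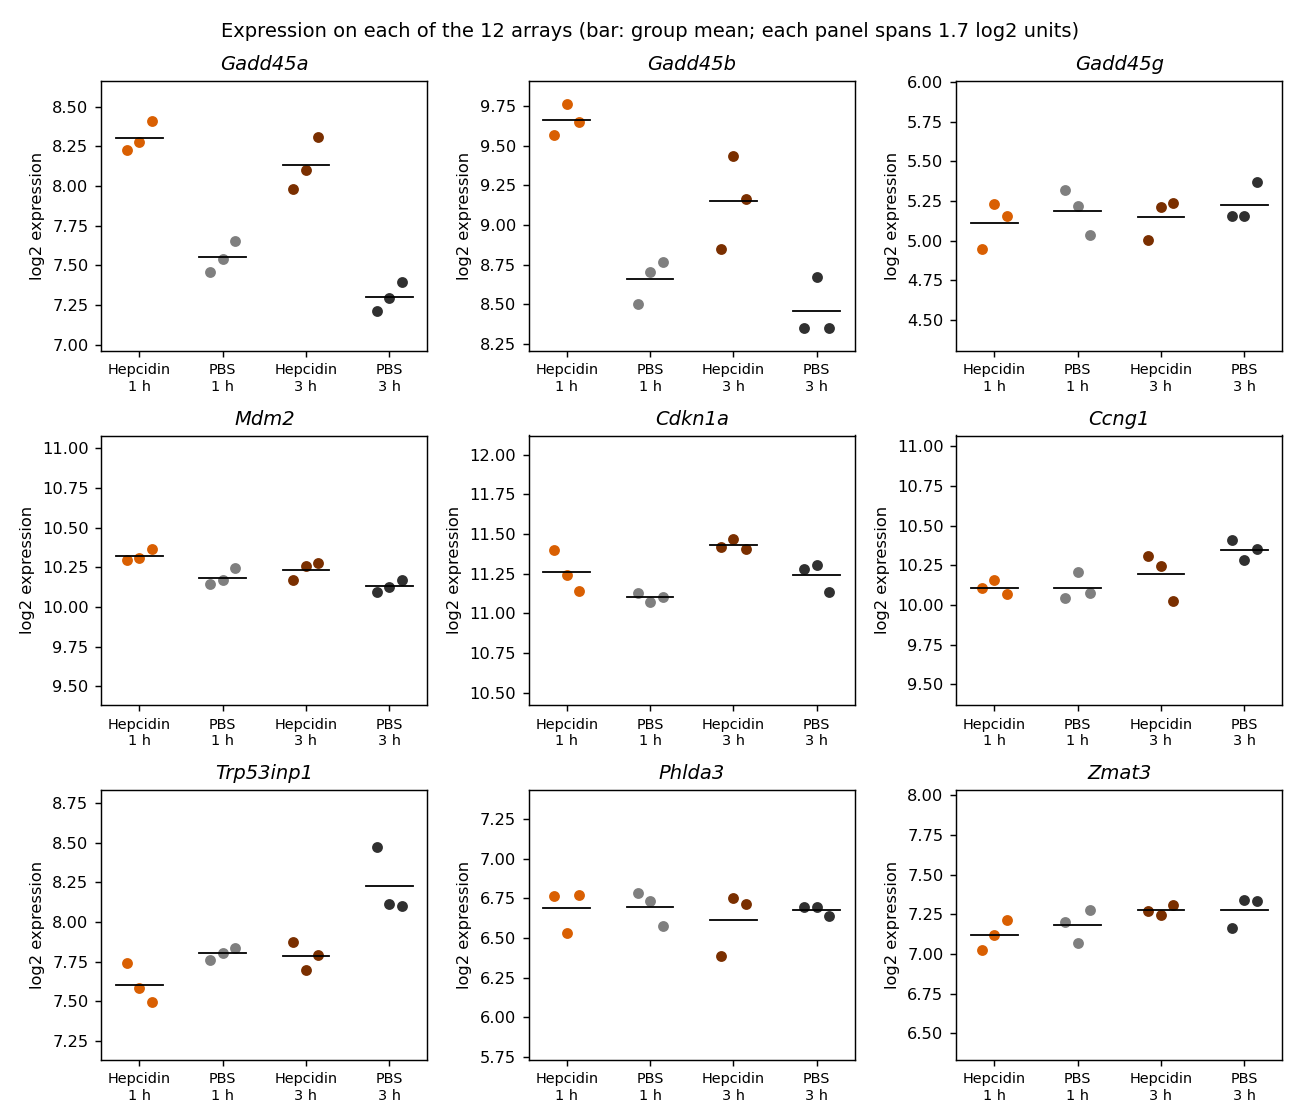
Log2 expression (vertical axes) of the 9 measured genes on each array, by treatment and time (horizontal axes); points are arrays in the order of their replicate numbers, bars are group means, and all panels span the same range. Gadd45a and Gadd45b lie higher in both hepcidin groups than in both PBS groups, and Trp53inp1 is highest with PBS at 3 h, at 8.10 to 8.47.

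Cdkn1a, Mdm2, Ccng1, Phlda3 and Zmat3 passed at neither time. Cdkn1a encodes the CDK inhibitor p21 and is the standard readout of p53 activity. At 1 h it had 11.40, 11.24 and 11.14 with hepcidin, against 11.13, 11.07 and 11.11 with PBS. At 3 h it had 11.42, 11.47 and 11.41 with hepcidin, against 11.28, 11.30 and 11.14 with PBS. The hepcidin arrays lay above the PBS arrays at both times, by 0.16 at 1 h (SE 0.08, adjusted p = 0.745 in limma, n = 3 each) and by 0.19 at 3 h (SE 0.08, adjusted p = 0.211), and neither passed. The 95% intervals ran from -0.0074 to 0.33 at 1 h and from 0.03 to 0.36 at 3 h.

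Mdm2, the ubiquitin ligase that degrades p53, had the same layout at a smaller size. It had 10.29, 10.31 and 10.36 with hepcidin at 1 h, against 10.14, 10.17 and 10.24 with PBS at 1 h. At 3 h the values were 10.17, 10.26 and 10.28 with hepcidin, against 10.10, 10.12 and 10.17 with PBS. The groups did not overlap at either time, though at 3 h the lowest hepcidin array and the highest PBS array both round to 10.17. The changes were 0.14 at 1 h (95% interval 0.002 to 0.27, adjusted p = 0.726 in limma, n = 3 each) and 0.11 at 3 h (-0.03 to 0.24, adjusted p = 0.444), and neither passed.

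Ccng1, which encodes cyclin G1, a partner of the phosphatase PP2A that acts on Mdm2, overlapped between treatments at both times. It had 10.11, 10.16 and 10.07 with hepcidin at 1 h, against 10.05, 10.21 and 10.08 with PBS, and its change there was -0.0007 (95% interval -0.18 to 0.18). At 3 h it averaged 10.19 ± 0.15 with hepcidin and 10.35 ± 0.062 with PBS (SD, n = 3 each), a change of -0.16 (95% interval -0.33 to 0.02, adjusted p = 0.378 in limma).

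Phlda3, a repressor of AKT signalling, and Zmat3, an RNA-binding zinc finger protein, gave overlapping groups at both times. Phlda3 averaged 6.69 ± 0.14 with hepcidin and 6.70 ± 0.11 with PBS at 1 h, and 6.62 ± 0.20 with hepcidin and 6.68 ± 0.034 with PBS at 3 h (SD, n = 3 each). Its 95% intervals were -0.23 to 0.22 at 1 h and -0.29 to 0.17 at 3 h. Zmat3 averaged 7.12 ± 0.095 with hepcidin and 7.18 ± 0.11 with PBS at 1 h, and 7.28 ± 0.033 with hepcidin and 7.28 ± 0.098 with PBS at 3 h. Its intervals were -0.23 to 0.11 at 1 h and -0.18 to 0.17 at 3 h.

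Trp53inp1, a stress protein that promotes p53 phosphorylation and autophagy, was the single member called lower with hepcidin than with PBS. At 3 h it had 7.88, 7.70 and 7.79 with hepcidin, against 8.47, 8.11 and 8.10 with PBS, and the groups did not overlap. The log2 change was -0.44 (SE 0.10), 1.36-fold lower with hepcidin, with an adjusted p of 0.0264 in limma (n = 3 each). At 1 h it had 7.74, 7.58 and 7.49 with hepcidin, against 7.76, 7.81 and 7.84 with PBS. These groups also did not overlap, and the change of -0.20 did not pass (SE 0.10, adjusted p = 0.795).

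The level of Trp53inp1 was highest with PBS at 3 h (8.23 ± 0.21), followed by PBS at 1 h (7.80 ± 0.038), hepcidin at 3 h (7.79 ± 0.090) and hepcidin at 1 h (7.61 ± 0.12, SD, n = 3 each). PBS at 3 h stood 0.42 above PBS at 1 h (SE 0.10, adjusted p = 0.118 in limma), without overlap between those groups and without passing. Between hepcidin at 3 h and PBS at 1 h the arrays overlapped, as did those of hepcidin at 3 h and hepcidin at 1 h. The call was lost without PBS 3 h replicate 1 (change -0.32, adjusted p = 0.0770), hepcidin 3 h replicate 2 (-0.39, adjusted p = 0.0905) or hepcidin 3 h replicate 3 (-0.44, adjusted p = 0.0772). It was also lost with only these 2 groups in the fit (-0.44, adjusted p = 0.104) and in an unmoderated linear model (adjusted p = 0.0631).

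**Figure D2:**
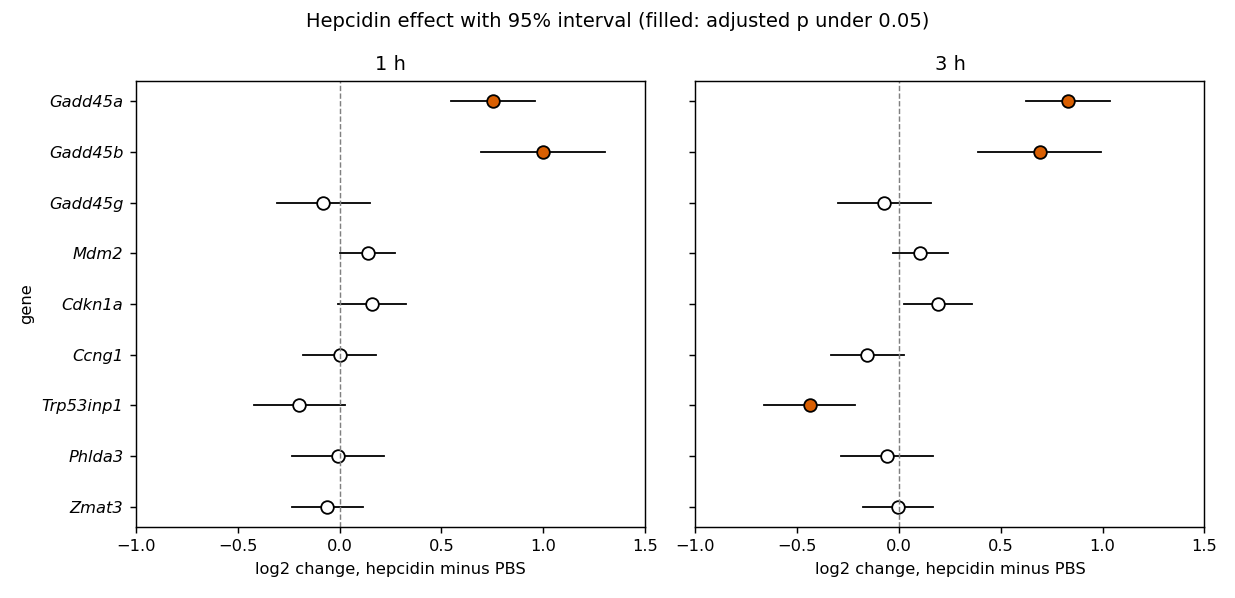
Log2 change of hepcidin minus PBS (horizontal axes) for the 9 measured genes at 1 h and 3 h, with limma's 95% intervals as lines. Filled points passed at an adjusted p under 0.05: Gadd45a and Gadd45b at 1 h, at 0.75 and 1.00, and at 3 h the same genes and Trp53inp1, at -0.44.

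In counts, 2 of the 9 measured genes passed at 1 h, both higher, where 0.559% of all genes passed (0.527% higher and 0.0324% lower). At 3 h 3 of 9 passed, 2 higher and 1 lower, where 5.33% of all genes passed (2.8% higher and 2.53% lower). The groups did not overlap in 5 of 9 genes at either time, against 12.3% of all genes at 1 h and 21.7% at 3 h. The median log2 change of the 9 genes was -0.0007 at 1 h and -0.0047 at 3 h, beside -0.0022 at 1 h and 0.016 at 3 h over all genes. For PBS at 3 h against PBS at 1 h, and for hepcidin at 3 h against hepcidin at 1 h, limma called 0 of 9, with 3 and 2 at an unadjusted p under 0.05, where 0.45% of all genes passed for PBS (0.207% higher and 0.243% lower) and 5.05% for hepcidin (2.44% higher and 2.61% lower). The groups did not overlap in 4 of 9 genes in each of these comparisons over time, against 17.7% of all genes for PBS and 20.1% for hepcidin. The comparisons over time share arrays with those of hepcidin against PBS. All 9 genes lay above the array median on all 12 arrays, while the shares of all genes include weakly expressed ones. The members were chosen with earlier results of these data known, so their counts give no independent evidence of an excess.

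Across the 12 arrays the members differed in how closely they followed Gadd45a. Gadd45a and Gadd45b had a Pearson r of 0.92, and each had 0.91 with Mdm2. Trp53inp1 had -0.80 with Gadd45a, -0.79 with Gadd45b, -0.82 with Mdm2 and 0.75 with Ccng1. Cdkn1a had 0.41 with Gadd45a and 0.37 with Gadd45b. With Gadd45a, Ccng1 had -0.56, Gadd45g -0.27, Zmat3 -0.21 and Phlda3 -0.04. These values describe 12 arrays that form 4 groups, so they reflect the group means as well as the arrays.

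Among 11253 named genes above the median mean, without members or predicted gene models, the 3 whose values followed Gadd45a most closely were Cd83 (r = 0.98 over 12 arrays), Rasgef1b (0.98) and Ccrl2 (0.97). Cd83 encodes an activation marker of dendritic cells and other immune cells. Its log2 change with hepcidin was 1.32 at 1 h and 1.36 at 3 h. Rasgef1b changed by 1.14 and 1.20, and Ccrl2, a chemerin-binding receptor, by 1.43 and 1.55. The 3 closest to Gadd45b were Dusp5, a phosphatase of ERK (r = 0.97), the kinase gene Sgk1 (0.95) and the transcription factor gene Irf1 (0.94). Dusp5 changed by 0.55 at 1 h and 0.39 at 3 h, Sgk1 by 0.49 and 0.24, and Irf1 by 1.36 and 0.70. All of these but Sgk1 at 3 h passed in limma. These genes were picked for following the member over the same arrays, so a shared pattern over the groups is fixed by the choice. The 3 closest to Trp53inp1 were Stxbp5 (r = 0.95), Tmem71 (0.93) and Arhgef6 (0.93), which passed at neither time, with log2 changes at 3 h of -0.15, -0.39 and -0.37.

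**Figure D3:**
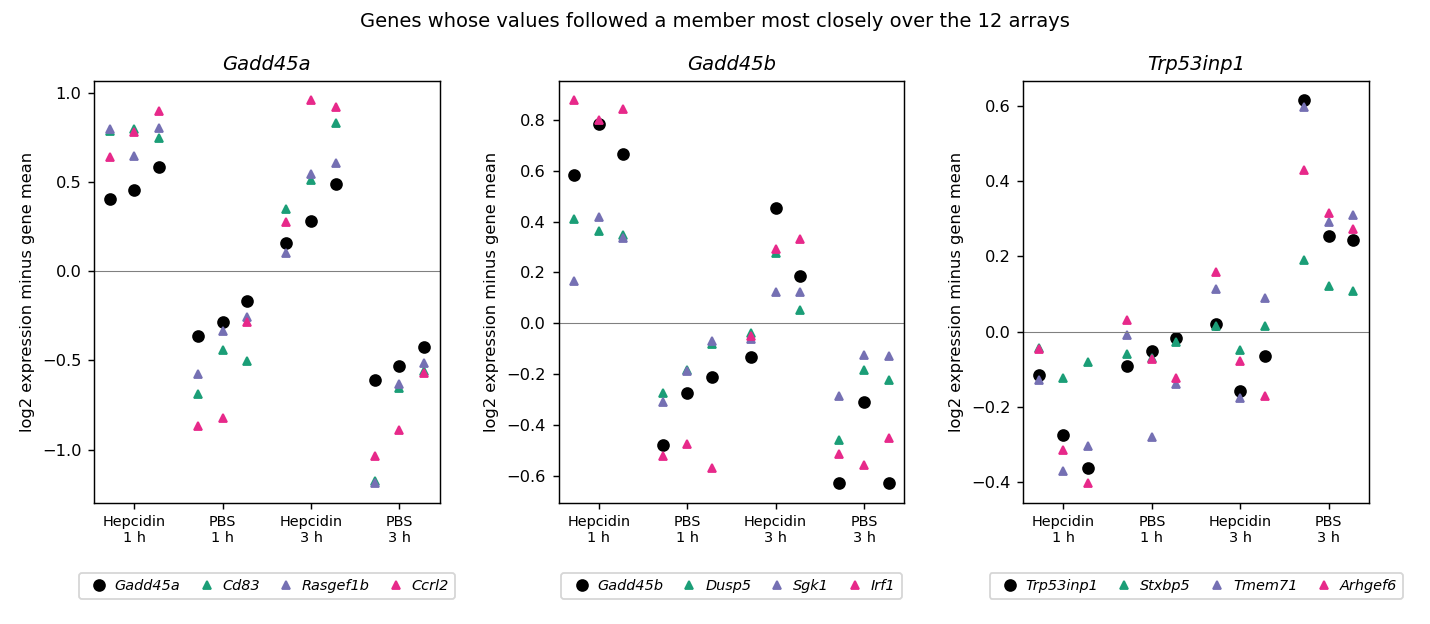
Log2 expression minus each gene's mean over the 12 arrays (vertical axes) for Gadd45a, Gadd45b and Trp53inp1 (black) and the 3 genes that followed each most closely (coloured), by treatment and time; within a group, points are in the order of their replicate numbers. Gadd45a runs with Cd83, Rasgef1b and Ccrl2, whose changes with hepcidin were larger, at 1.14 to 1.55.

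The wider pathway was read from 7 lists holding 113 genes, of which 107 were measured. At 1 h 2 of the 107 passed, both higher, and at 3 h 15 passed, 5 higher and 10 lower. These are 1.87% at 1 h and 14.0% at 3 h, beside 0.559% of all genes at 1 h and 5.33% at 3 h (2.8% higher and 2.53% lower). No filter on expression was applied, so the shares of all genes include weakly expressed ones. In a fit of only genes above the median mean, 1727 genes passed at 3 h, against 1316 in the main fit. That fit holds fewer genes, so the share of its genes that passed was higher than 5.33%. Of the listed genes 23 passed there, against 15. The shares of 14.0% and 5.33% thus compare genes that were not matched for expression level. The part of expression level in the gap between the shares was not tested. The lists were drawn up with earlier results of these data known. They give no independent evidence of a direction or of an excess of passing genes, here or in the later counts.

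Among 19 other p53 targets of the cell cycle and stress response, Btg2 alone passed at 1 h in limma, where it was higher. In that list 7 genes, Btg2 included, had an unadjusted p under 0.05 at 1 h, and 13 of the 19 changes lay above 0. Btg2, an antiproliferative gene, averaged 7.79 with hepcidin and 6.82 with PBS, a change of 0.98 (SE 0.09, adjusted p = 5.55e-05 in limma, n = 3 each). At 3 h its change was 0.26 and did not pass (adjusted p = 0.133). In the same list 1 gene was higher and 3 were lower with hepcidin than with PBS at 3 h. Rnf144b, a p53-induced ubiquitin ligase in human cells, averaged 6.29 with hepcidin and 7.81 with PBS and was 2.87-fold lower (-1.52, SE 0.07, adjusted p = 1.09e-07). The antiproliferative gene Tob1 was 1.78-fold lower (-0.83) and Sesn1, a stress-induced inhibitor of mTORC1 signalling, 1.58-fold lower (-0.66). Sesn2, its paralogue, which ATF4 also induces, stood at 7.31 with hepcidin and 6.73 with PBS (0.58, SE 0.10, adjusted p = 0.00438). Sesn2 fell over time in both treatments. With PBS it averaged 6.73 at 3 h and 7.82 at 1 h (-1.09, adjusted p = 0.00194). With hepcidin it averaged 7.31 at 3 h and 7.88 at 1 h (-0.57, adjusted p = 0.00610 in limma), a call lost with only the groups compared. Its hepcidin effect at 3 h minus that at 1 h was 0.52 and did not pass. The median of the list was 0.08 at 1 h and -0.03 at 3 h.

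Of 15 other p53 targets of cell death, Fas rose at both times and Steap3 fell at 3 h. Fas, a death receptor gene that NF-kB also induces, changed by 0.95 at 1 h (SE 0.15, adjusted p = 0.00758) and by 2.69 at 3 h (SE 0.15, adjusted p = 3.42e-07). Its call at 1 h was lost without PBS 1 h replicate 2, in an unmoderated linear model and with only these 2 groups in the fit. The BH3-only genes Bbc3 (Puma) and Pmaip1 (Noxa) did not pass, at 0.04 and 0.34 at 1 h and at 0.10 and 0.46 at 3 h. Steap3, a ferrireductase gene, changed by -0.46 at 3 h. Of 9 p53 targets of DNA repair and nucleotide supply 0 passed at 1 h in limma (0 at an unadjusted p under 0.05). At 3 h Polk, a translesion DNA polymerase gene, fell by 0.43, a call lost when replicate 3 of either 3 h group was left out.

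Of 23 genes of the p53 family and its regulators 0 passed at 1 h in limma, with 1 at an unadjusted p under 0.05. At 3 h Cop1, a ubiquitin ligase gene whose product can target p53, rose by 0.50 (SE 0.07, adjusted p = 0.00102). Pml, the gene of the nuclear body scaffold, fell by 0.35 (adjusted p = 0.0130), a call lost without any 1 of 3 arrays. Mdm4, the paralogue of Mdm2, changed by -0.06 at 1 h and 0.03 at 3 h, and the phosphatase gene Ppm1d by 0.01 and -0.03, none past the threshold.

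Of 13 GADD45 partners and MAP kinases 0 passed at 1 h in limma, with 2 at an unadjusted p under 0.05. At 3 h Mapkapk2, the kinase downstream of p38 that stabilises cytokine mRNAs, rose by 0.83 (SE 0.08, 10.71 with hepcidin and 9.89 with PBS, adjusted p = 4.37e-05). Map2k6, a kinase that activates p38, was 2.25-fold lower (-1.17, SE 0.16, adjusted p = 7.64e-04). It averaged 5.23 with hepcidin, near the array median, and 6.40 with PBS.

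Of 16 cyclins, CDKs and CDK inhibitors 0 passed at 1 h in limma (0 at an unadjusted p under 0.05), while 1 rose and 3 fell at 3 h. Ccng2, the FOXO-regulated relative of Ccng1, fell by 0.76 (SE 0.13, adjusted p = 0.00301) and the p27 gene Cdkn1b by 0.38 (adjusted p = 0.00641). The retinoblastoma gene Rb1 fell by 0.27 (adjusted p = 0.0399), and Cdk6 rose by 0.40 (adjusted p = 0.0214). The call of Rb1 was lost under 10 of the 12 arrays left out in turn, and that of Cdk6 under 4. Of 12 mitotic genes that p53 lowers through p21, limma called 0 at either time, with 0 at an unadjusted p under 0.05. The list medians were -0.10 at 1 h and -0.12 at 3 h, with 11 of the 12 genes below 0 at 1 h and 10 at 3 h. At 3 h the largest change, -0.29 for Kif11, did not pass (adjusted p = 0.66), so changes of this size are not excluded.

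Over time with PBS, 3 of the 107 genes passed (2.80%, beside 0.45% of all genes). Sesn2 fell, Btg2 rose by 0.57 (7.39 at 3 h and 6.82 at 1 h, adjusted p = 0.0174) and Mapk8, the gene of the stress kinase JNK1, fell by 0.40 (adjusted p = 0.0319). The calls of Btg2 and Mapk8 were lost without single arrays, 4 of 12 for Btg2 and 7 of 12 for Mapk8. Over time with hepcidin, 19 passed (17.8%, beside 5.05% of all genes), 5 higher and 14 lower. Fas rose by 2.00 (9.54 at 3 h and 7.55 at 1 h) and Cop1 by 0.55, while Rnf144b fell by 1.53, Map2k6 by 1.34, Ccng2 by 0.83 and Ccnd1, the cyclin D1 gene, by 0.75. Chek1, the checkpoint kinase gene, fell by 0.74 and the deacetylase gene Sirt1 by 0.42. The call of Chek1 was lost without hepcidin 3 h replicate 3 (-0.67, adjusted p = 0.0579), in an unmoderated linear model and with only these 2 groups in the fit. Chek1 also fell over time with PBS, by 0.58, without passing. Chek1, Sirt1 and Ccnd1 passed at neither time in hepcidin against PBS, with changes at 3 h of -0.19, -0.11 and -0.31. Their falls over time are thus not shown to be effects of hepcidin.

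**Figure D4:**
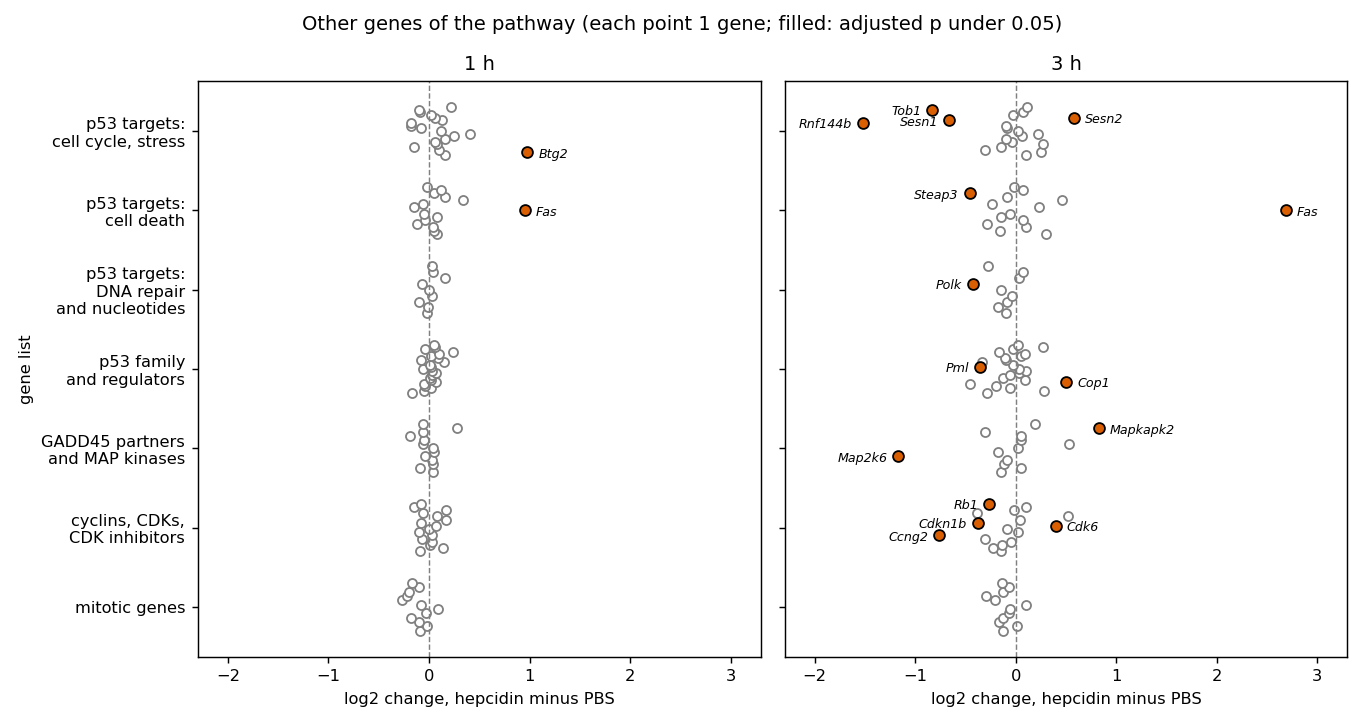
Log2 change of hepcidin minus PBS (horizontal axes) for the 107 other genes of the pathway at 1 h and 3 h, 1 point a gene, by list (vertical axis); filled and named points passed at an adjusted p under 0.05. At 1 h Btg2 and Fas stand apart, and at 3 h 10 of the 15 named genes lie below 0.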

How the data were processed

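Expression was measured on 12 whole-transcript arrays, 3 in each of 4 groups. Per the submitters' processing notes the authors used RMA and Partek, with neither a version nor the part each played. The authors deposited 1 value per probe set and array, used here as log2 values because RMA returns log2 and they run from 2.00 to 13.41. Of 25429 probe sets 24675 had a gene symbol, updated through Entrez IDs to RefSeq of GRCm38.p6. The other 754 are unnamed here. No filter on expression was applied, and no batch is given in the labels.

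A linear model with 4 group means was fitted in R 4.3.3 with limma 3.58.1 (8 residual and 4.11 prior degrees of freedom). P-values were adjusted over all named genes within each of 5 comparisons. Errors are moderated standard errors. The procedure was tested on simulated data, where small changes were often missed. Of simulated log2 changes of 0.35, it recovered 32.8% for hepcidin against PBS at 1 h and 19.4% at 3 h. For the difference between the effects it recovered 2.99%. Small changes that did not pass are thus not shown to be absent. The precision is limited by 3 arrays per group. Named are all members, up to 4 called genes of each list and comparison, and the 3 genes closest to each member called at 1 h or 3 h. For hepcidin at 3 h against 1 h, some of these are left out. Members and lists were chosen with earlier results of these data known.

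Alternative fits used a replicate block, array weights, no moderation, a robust trended prior, only the groups compared, all probe sets, only genes above the median mean, median-centred arrays or a second quantile normalization, or left out each array in turn.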

Additional observations from a re-analysis of the deposited data

Results flagged for a closer look

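The hepcidin effect was not shown to differ between 1 h and 3 h for any member. Of the 107 other pathway genes 7 differed (6.54%, beside 1.03% of all genes), by limma's test of the difference itself (effect at 3 h minus effect at 1 h, log2). The difference was -1.34 for Rnf144b, with an effect of -1.52 at 3 h and -0.18 at 1 h. It was -0.79 for Sesn1 (-0.66 and 0.13), -0.73 for Tob1 (-0.83 and -0.10) and -0.72 for Btg2 (0.26 and 0.98). For Fas it was 1.74 (2.69 at 3 h and 0.95 at 1 h), for Map2k6 -1.13 (-1.17 and -0.04) and for Mapkapk2 0.55 (0.83 and 0.28). The adjusted p-values were 2.77e-04 for Rnf144b, 0.0108 for Sesn1 and Tob1, 0.0155 for Btg2, 0.00213 for Fas, 0.0378 for Map2k6 and 0.0432 for Mapkapk2. Btg2 lost its call when replicate 2 of either 1 h group was left out. Map2k6 kept its call in 3 and Mapkapk2 in 1 of the 12 cases with an array left out. Both lost it in an unmoderated linear model, Map2k6 also after a second quantile normalization (adjusted p = 0.0509) and Mapkapk2 after median centring. With PBS, Btg2 itself rose by 0.57 between 1 h and 3 h.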

How the results depend on the processing

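Gadd45a kept its call at 1 h and at 3 h under all 9 planned settings and all 12 arrays left out, with log2 changes of 0.70 to 0.80 at 1 h and 0.74 to 0.91 at 3 h. The count of members called at 1 h was 2, and 1 in an unmoderated linear model, where Gadd45b was lost (adjusted p = 0.0509). At 3 h it was 3, 2 in an unmoderated linear model, where Trp53inp1 was lost, and 1 with only the groups compared, where Gadd45b was lost too. Without single arrays it was 2 at 1 h and 2 to 3 at 3 h. Between the PBS groups it was 0, and 1 with a trended and robust prior or among genes above the median mean, in both cases Trp53inp1. From 1 h to 3 h with hepcidin it was 0 to 1 with single arrays left out, and 1 with the replicate block, with a trended and robust prior or among genes above the median mean, in each case Gadd45b. No member that passed in the model of all 4 groups changed sign under any setting. Deviations of same-numbered samples correlated at over 0.1 in 9 of 18 pairs (lowest -0.0054, highest 0.25). The rule used here asked for every pair, so the main model has no replicate block. Whether the numbers pair the samples is not settled. As a hint from the data towards pairing, 4 of 4 arrays numbered 1, 3 of 4 numbered 2 and 3 of 4 numbered 3 correlated best with their own number. With the replicate block 2 members passed at 1 h and 3 at 3 h, and over all genes 163 and 1615, against 138 and 1316 without it. The block gave Gadd45b an adjusted p of 0.00972 from 1 h to 3 h with hepcidin, and Map2k6 one of 0.0501 for the difference between the effects. With only the groups compared, the counts over all genes were 7 between the PBS groups (111 in the model of all 4 groups), 616 with hepcidin over time (1246) and 805 at 3 h (1316). Between the PBS groups they were 240 with the replicate block, 319 with a trended and robust prior, 333 among genes above the median mean, 285 with array weights and 64 after median centring. For the difference between the effects they were 433 with a trended and robust prior and 412 among genes above the median mean. With single arrays left out they were 837 to 1287 at 3 h, 23 to 126 between the PBS groups, 721 to 1178 with hepcidin over time and 141 to 234 for the difference between the effects, against 254. The same settings, applied to the other pathway genes after seeing the data, gave 1 call in place of 2 at 1 h in an unmoderated model or with only the groups compared, and 1 to 2 with single arrays left out. At 3 h they gave 12 to 23 in place of 15, with 23 among genes above the median mean, and 11 to 18 with single arrays left out. For the difference between the effects the count was 7, and 4 to 9 with single arrays left out. Between the PBS groups it was 3, and 7 with the replicate block, 6 among genes above the median mean or with array weights, 1 with only the groups compared and 1 to 4 with single arrays left out. The median SE of a difference was 0.097.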

Other observations

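The values of Gadd45a and Mdm2 had the same order by replicate number in all 4 groups, with the array numbered 1 lowest and that numbered 3 highest each time. The other 7 measured members had no common order. Over all 24675 genes, 533 (2.16%) had 1 common order in all 4 groups. The cause was not tested.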
